A study of Arabidopsis thaliana with 9 samples.

Results

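The transcripts encoded by the chloroplast genome were examined in Arabidopsis thaliana shoots (wild type, ecotype Col-0) grown with iron (+Fe), without it (-Fe), or resupplied with it after a period without (Fe resupply). Members were all transcripts whose locus name starts with ATCG and whose deposited average level lay above the lowest level of a table in at least 1 of the 3 deposited tables. Of the 55442 transcripts in each table, 133 carried such a name, 122 met the rule and 11 sat at the lowest level of all 3 tables. The lowest member reached a mean of 0.068 CPM (counts on a transcript, scaled to a common library size) in its highest table. This value, and the 0 of those outside the rule, are after the lowest level was subtracted.

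RNA-seq was carried out on 9 samples, 3 for each condition, and all plants shared the same genotype. Seedlings of every group first had 14 days with iron. Those of +Fe then spent 3 days and a further 24 hours on fresh iron-containing medium, the -Fe plants spent both periods without iron, and the Fe resupply plants spent the 3 days without iron and the final 24 hours with it. The deposited tables give 1 average level for each transcript over all libraries of a pair of conditions, and no value for a single sample. The 3 pairwise averages were solved for the mean level of each condition. A level solved this way carries no spread over the 3 samples and was not tested, and the authors' own test columns were not used, so every difference here is a description of mean levels. Whole shoots were sampled, so less RNA in each chloroplast and fewer chloroplasts or green cells cannot be told apart.

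The chloroplast genome keeps genes for the core subunits of both photosystems, the cytochrome b6f complex, the ATP synthase, the NADH dehydrogenase-like (NDH) complex, the large subunit of Rubisco, part of the chloroplast ribosome and the subunits of the plastid-encoded RNA polymerase. Iron is needed in the photosynthetic chain itself, as haem and as iron-sulfur clusters, and photosystem I and the NDH complex are among its iron-sulfur proteins. Most chloroplast messengers lack the long poly(A) tail of nuclear messengers, so libraries primed or selected through the tail recover few of them. The sources used here do not state whether such a selection was made.

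A gene name is given to 6 of the 122 members. The files give locus names only, and the reference annotation lists the chloroplast genes under other names, so a gene name was used only where a note on a nuclear gene or pseudogene names the ATCG locus and that nuclear sequence aligned best to 1 chloroplast coding sequence. This gave ndhJ (ATCG00420.1) and ndhK (ATCG00430.1), which encode subunits of the NDH complex, rpl2 (ATCG01310.1) and rpl20 (ATCG00660.1), which encode proteins of the large ribosomal subunit, clpP (ATCG00670.1), the proteolytic subunit of the Clp protease, and cemA (ATCG00530.1), an envelope membrane protein. The note for ATCG00430 calls it photosystem II reaction center protein G, an older name for the product of ndhK. The other 116 members were not assigned to a complex. Only 2 genes of the NDH complex and 2 of the ribosome are thus described, which do not stand for their complexes, and members without a name may encode other subunits of either. The photosystems, cytochrome b6f, ATP synthase and RNA polymerase were not analysed here as groups.

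The first 60 coding bases of the 3 named genes at 10 CPM or more are shown because the comparison of named genes rests on them, with the start codon in capitals. They are from the RefSeq chloroplast sequence of assembly TAIR10.1 (Pltd), and all 3 stretches shown lie on the minus strand, in exons. For rpl2 the stretch is from 1 of 2 copies, and which copy ATCG01310.1 stands for was not determined.
ndhK: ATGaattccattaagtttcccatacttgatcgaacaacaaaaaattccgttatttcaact
ndhJ: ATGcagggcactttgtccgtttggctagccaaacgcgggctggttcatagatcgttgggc
rpl2: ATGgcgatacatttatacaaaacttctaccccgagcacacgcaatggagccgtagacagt
The ndhK gene lies at 49257 to 49934 and ndhJ at 48677 to 49153, 103 bases apart on the same strand. The rpl2 gene has 2 copies in the chloroplast genome, 1 of them at 84337 to 85843, so the division of its reads between copies rests on the authors' counting and its level is less certain.

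The tissue and the iron conditions were checked against marker genes. RBCS1A, LHCB1.3 and CA1, nuclear genes of photosynthetic tissue, lay at 2767 CPM or more in each condition. The root genes CASP1 and EXPA7 were recovered at 0, and PYK10, a glucosidase gene marking roots, lay between 71.4 and 122.6 CPM. The iron deficiency regulator bHLH39 was recovered at 2.21 CPM under +Fe, 115.6 under -Fe and 7.44 under Fe resupply, so its level was highest without iron. The lowest value of the tables gives a library of 1124865 to 1142464 counts if edgeR added its usual prior of 2 counts. On that reading 1 CPM is about 1 count per library. It takes the input to edgeR as read counts, which is not stated, and the study refers to its count data as FPKM values.

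Chloroplast transcripts took up a smaller share of the libraries in -Fe and in Fe resupply than in +Fe. Summed over the 122 members, the level was 15704 CPM under +Fe, 11134 under -Fe and 12073 under Fe resupply. These sums were 1.57%, 1.11% and 1.21% of all counts. The -Fe sum was thus 0.709 times and the Fe resupply sum 0.769 times that of +Fe. A single transcript, ATCG00480.1, made up 37.4% of the chloroplast sum in +Fe, 33.8% in -Fe and 32.8% in Fe resupply. Without it the ratios to +Fe were 0.750 in -Fe and 0.825 in Fe resupply, so both stayed under 1.

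The summed level of mitochondrial transcripts, which likewise mostly lack long poly(A) tails, was also lower in both conditions than in +Fe. Their 152 listed transcripts summed to 396.2 CPM under +Fe, 240.7 under -Fe and 289.7 under Fe resupply, or 0.608 and 0.731 times +Fe. Above the floor were 118 of them, with a median log2 difference of -0.18 between -Fe and +Fe. Between Fe resupply and +Fe their median was -0.04, with 69 lower and 49 higher, while that of the 122 chloroplast members was -0.23. Only 3 mitochondrial transcripts reached 10 CPM or more in at least 1 condition. Their medians were -0.52 for -Fe vs +Fe and -0.67 for Fe resupply vs +Fe. The 49 chloroplast members at this limit had medians of -0.53 and -0.37. The recovery of tail-less RNA by the libraries was not measured, and its part in the chloroplast differences was not tested.

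**Figure D1:**
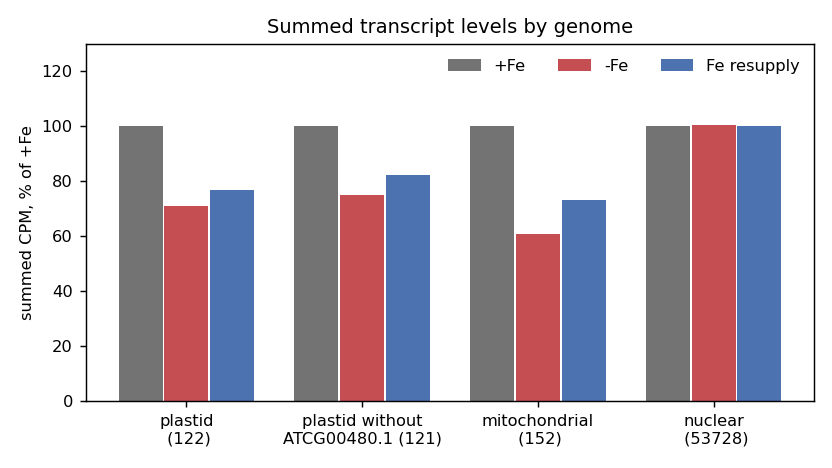
Summed CPM of chloroplast, mitochondrial and nuclear transcripts in each condition (bars), as a percentage of the +Fe sum, with the number of transcripts in brackets. The chloroplast and mitochondrial bars of -Fe and Fe resupply lie under those of +Fe. Nuclear transcripts hold 98.3% to 98.8% of all counts, so scaling to a common library size keeps their sums near 1.00 times +Fe.

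Levels of the single members spanned several orders of magnitude. As means of the 3 conditions, 18 members lay at 100 CPM or more, 3 of these far above the others, 28 between 10 and 100 CPM, 43 between 1 and 10 CPM, and 33 under 1 CPM. The median member in +Fe was at 4.75 CPM. The highest, ATCG00480.1, was at 5875 CPM under +Fe, 3765 under -Fe and 3961 under Fe resupply. It was lower in both other conditions than in +Fe, by a log2 difference of -0.64 in -Fe and -0.57 in Fe resupply, and nearly the same in these 2.

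Per kilobase of coding sequence, ndhK was the highest of the 6 named genes in +Fe, with 359.7 CPM per kb. It was followed by rpl2 at 231.7 and ndhJ at 228.9 CPM per kb. The latter 2 lay close together, and no replicate spread is at hand to order them. The value of rpl2 is that of 1 locus of a gene with 2 copies. Its place beside ndhK and ndhJ is therefore uncertain in each condition. In -Fe the order turned, and rpl2 (166.4 CPM per kb) lay above ndhK (125.1 CPM per kb) and ndhJ (76.1 CPM per kb). The other named genes were far lower in +Fe, clpP at 15.2, cemA at 14.1 and rpl20 at 5.30 CPM per kb. Division by length takes the deposited values as not already scaled to length, which is not stated.

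**Figure D2:**
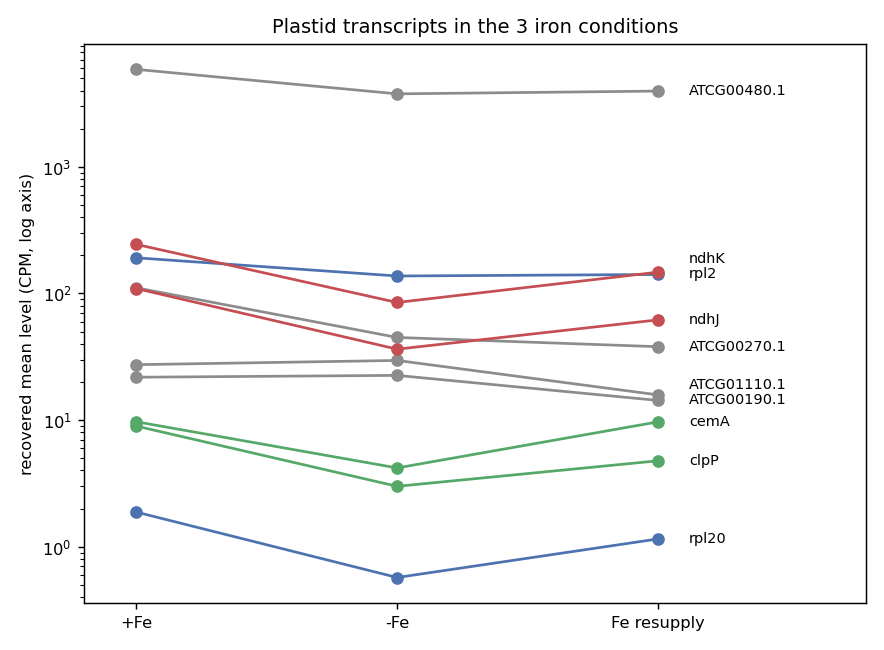
Recovered mean level in CPM (log axis) in each condition for the 6 named chloroplast genes and 4 further transcripts, each line 1 transcript (red, NDH genes; blue, ribosomal protein genes; green, clpP and cemA; grey, not tied to a gene). ndhK goes from 243.9 to 84.8 and 147.2 CPM, while rpl2 goes from 191.1 to 137.3 and 141.1 CPM.

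Iron deficiency was compared with iron sufficiency for the members at 10 CPM or more in at least 1 condition, of which there were 49. The member just inside this limit reached 10.9 CPM, and the one just outside, cemA, reached 9.70 CPM. Differences were taken as log2 of the level + 1 CPM, which understates those of low transcripts. The level was lower in -Fe than in +Fe for 47 of the 49 (95.9%), against 48.5% of all 14065 transcripts at the same limit. The median log2 difference was -0.53 for the members and 0.01 over all 14065 transcripts. By 1 or more on the log2 scale, 6 of the 49 were lower (12.2%) and 0 were higher, where 5.30% of all transcripts were lower and 5.03% were higher by this much. By 0.5 or more, 26 were lower (53.1%) and 0 higher, against 12.8% and 12.9% of all transcripts. A limit on the largest of the 3 levels favours members that are high in 1 condition. With the limit put on the mean of the conditions instead, 46 members remained, with a median of -0.50. By 1 or more, 6 of them were lower (13%), against 3.44% of all 12272 transcripts at that limit. For the 18 members with a mean of at least 100 CPM, the level was lower in -Fe for all 18, with a median of -0.40. Of all 1534 transcripts at that level 42.3% were lower, with a median of 0.04.

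The 2 named NDH genes, which are neighbours, lay at the low end of these differences. The other members lower by 1 or more had no gene name here. They were ATCG00150.1 (-1.54), ATCG00330.1 (-1.45), ATCG00270.1 (-1.28) and ATCG00440.1 (-1.26). For ndhK the level was 243.9 CPM under +Fe, 84.8 under -Fe and 147.2 under Fe resupply. It was thus 0.348 times +Fe in -Fe (log2 difference -1.51), the third lowest difference among the 49. NdhK is a subunit that holds an iron-sulfur cluster of the complex, and whether this bears on its level was not tested. For ndhJ the level was 109.2 CPM under +Fe, 36.3 under -Fe and 61.8 under Fe resupply. Its -Fe level was 0.332 times that of +Fe (log2 difference -1.56), the lowest of the 49. In both genes the Fe resupply level lay between the other conditions. Together these 2 genes made up 2.25% of the chloroplast sum in +Fe, 1.09% in -Fe and 1.73% in Fe resupply, so their level was lower in -Fe also relative to the other chloroplast transcripts. They neighbour each other on the same strand, and their values are therefore not independent. A stretch of nuclear genome is annotated as a pseudogene of ndhJ, and reads shared with it cannot be told apart.

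The ribosomal protein gene rpl2 differed less between -Fe and +Fe. Its level was 191.1 CPM under +Fe, 137.3 under -Fe and 141.1 under Fe resupply. The log2 difference between -Fe and +Fe was -0.47, near the median of the 49 and about 1 log2 unit above the NDH pair. Relative to the chloroplast sum it hardly moved, with 1.22% in +Fe, 1.23% in -Fe and 1.17% in Fe resupply. The other named ribosomal gene, rpl20, had a lower ratio of -Fe to +Fe (0.304) than both NDH genes, at a level of 1.88 CPM or less. These values thus do not set the complexes apart.

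The remaining named genes were under 10 CPM, where a few counts per library set the value if the input was read counts. The level of cemA was 9.70 CPM under +Fe, 4.19 under -Fe and 9.68 under Fe resupply. For clpP it was 8.97 CPM under +Fe, 3.00 under -Fe and 4.77 under Fe resupply. For rpl20 it was 1.88 CPM under +Fe, 0.571 under -Fe and 1.15 under Fe resupply. All 3 were lowest in -Fe, with log2 differences to +Fe of -1.04 for cemA, -1.32 for clpP and -0.87 for rpl20. On the same reading the rpl20 values lie near 1 count per library in each condition, so its difference would rest on very few counts.

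**Figure D3:**
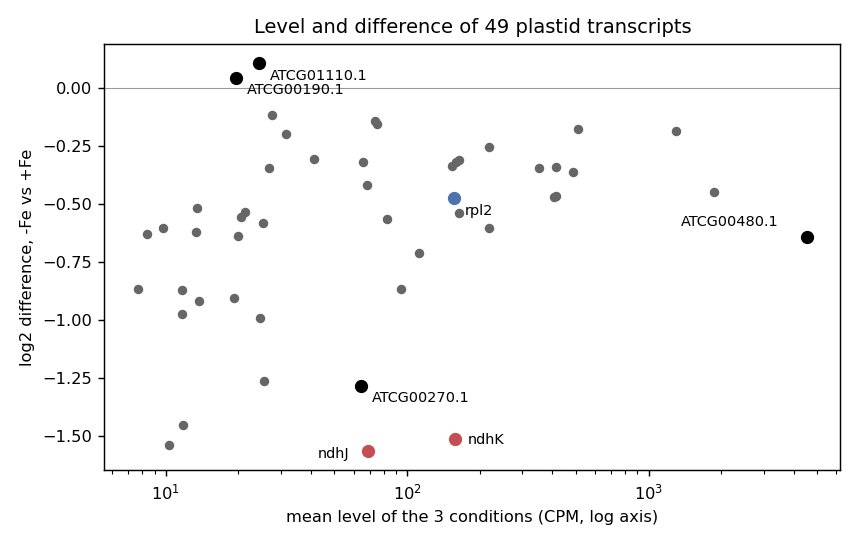
Log2 difference between -Fe and +Fe against the mean level of the 3 conditions (CPM, log axis), each point 1 of the 49 chloroplast transcripts at 10 CPM or more in 1 condition. ndhJ (-1.56) and ndhK (-1.51) lie lower than the transcripts of like level, and only 2 points lie above 0.

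Fe resupply was compared with +Fe to ask what still differed after 24 hours with iron. The level was lower in Fe resupply for 43 of the 49 members (87.8%), against 56.6% of all transcripts. The median log2 difference was -0.37 for the members and -0.05 over all transcripts. By 1 or more, 4 members were lower (8.16%) and 0 higher, where 5.19% of all transcripts were lower and 4.31% higher. By 0.5 or more, 19 were lower (38.8%) and 0 higher, against 13.7% and 9.93%. Of the 18 members with a mean of at least 100 CPM, 13 were lower (72.2%) and 5 higher, with a median of -0.28. Of all 1534 transcripts at that level 52.8% were lower, with a median of -0.02. The largest gap was that of ATCG00330.1 (log2 difference -1.63). It was followed by ATCG00270.1, with 110.7 CPM under +Fe, 44.9 under -Fe and 38.0 under Fe resupply. Its Fe resupply level was 0.343 times +Fe (log2 difference -1.52) and lay slightly under the -Fe level. The log2 differences to +Fe were -0.72 for ndhK, -0.81 for ndhJ and -0.43 for rpl2. With the deposited averages read as means of log2 levels they were -0.998 for ndhK, -1.12 for ndhJ and -0.47 for rpl2, so the size of the gap between rpl2 and the NDH pair depends on this reading.

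Fe resupply was then set against -Fe. The median log2 difference of -Fe to Fe resupply was -0.03 over the 49 members and 0.07 over all transcripts. In this comparison 1 member was lower in -Fe by 1 or more (2.04%) and 0 were higher, where 5.03% of all transcripts were lower and 6.09% higher. That member was ATCG00150.1 (-1.37), a low transcript with no gene name here. By 0.5 or more, 10 were lower (20.4%) and 2 were higher in -Fe, against 12.4% and 15.5% of all transcripts. The NDH pair was lower in -Fe, with -0.79 for ndhK and -0.75 for ndhJ, or -0.50 and -0.46 with the averages read as means of log2 levels, both then within 0.5. For rpl2 the difference was -0.04.

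Both members that were higher in -Fe by 0.5 or more were low transcripts. No gene name was tied to them here, so either may encode a subunit of any complex, NDH included. ATCG01110.1 was at 27.4 CPM under +Fe, 29.6 under -Fe and 15.8 under Fe resupply. ATCG00190.1 was at 21.8 CPM under +Fe, 22.5 under -Fe and 14.3 under Fe resupply. Their levels were alike in +Fe and -Fe and lower after resupply, and they were also the only 2 of the 49 whose level in -Fe was not below that in +Fe.

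**Figure D4:**
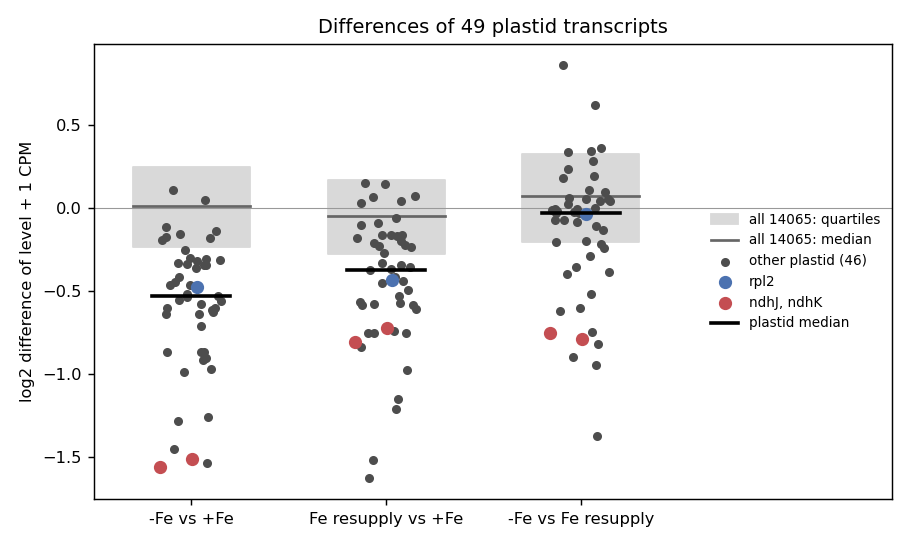
Log2 differences of level + 1 CPM for the 49 chloroplast transcripts in each comparison (points, spread sideways at random), with the chloroplast median (black line) and the quartiles and median of all 14065 transcripts (grey). The chloroplast median is at -0.53 for -Fe vs +Fe, -0.37 for Fe resupply vs +Fe and -0.03 for -Fe vs Fe resupply.

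The order of the 3 conditions was not the same for all members. In 41 of the 49 (83.7%) the +Fe level was the highest, in 6 it was the Fe resupply level and in 2 the -Fe level. The Fe resupply level lay between the other conditions in 25 members, ndhJ, ndhK and rpl2 among them, at or under the -Fe level in 18, ATCG00270.1 among them, and at or over the +Fe level in 6. Among the members lower in -Fe than in +Fe by 0.5 or more, 15 were also lower in Fe resupply by this much, and 11 were within 0.5 of +Fe. All comparisons draw on the same 3 mean levels, so these counts describe the levels and are not separate evidence. The shares of these orders over all transcripts were not computed.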

How the data were processed

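Per the study's methods and the submitters' processing notes, the authors' pipeline ran Trimmomatic 0.36.5 on the read pairs, then HISAT2 2.1.0 against TAIR10 and StringTie 1.3.3.2, and tested pairs of conditions with edgeR 3.20.7.2. What edgeR was given, and its normalisation, are not given in the sources used here. The deposited tables hold an average log2 CPM over both conditions of a pair, in which the authors' edgeR includes a prior count. The 4 other columns of each table (log2 fold change, F, p-value and adjusted p-value) are the authors' own comparisons and were not used. The count test allowed for in the design could therefore not be run.

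The averages were made linear and the floor of each table (1.75 to 1.78 CPM) was removed, after which each table summed to 1000523 to 1000872 CPM. Each condition's level was solved from the 3 pairwise means (-Fe is the -Fe/+Fe mean plus the -Fe/Fe resupply mean less the Fe resupply/+Fe mean), which takes libraries as equally weighted and the tables as equally scaled. Of all levels solved, 2 were under -1 CPM. The method was tested on simulated data, with more libraries per condition than the study has and the same spread for every transcript. The simulated averages were linear means, as the solving assumes. That test therefore cannot decide whether the deposited averages are means of log2 levels. A difference was counted at 1 on the log2 scale, with 0.5 as an alternative, a pseudocount of 1 CPM and a minimum of 10 CPM in 1 condition.

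Members and lists were chosen with earlier results of these data known. The rule for named genes takes the highest and lowest member of each complex per kb, the 3 largest differences in each direction and psbA, rbcL, psbD, ndhJ and ndhK. Only the 6 gene names tied to a locus (tblastx of BLAST+ 2.17.0, E-value limit 1e-05) could be used, with 4 further loci chosen after their values were seen. ATCG00150.1, ATCG00330.1 and ATCG00440.1 are given by log2 difference only, and not every locus the rule takes is given. One item is not reported here. Coordinates are those of TAIR10.1; the tables hold none.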

Additional observations from a re-analysis of the deposited data

How the results depend on the processing

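The counts of members past a log2 difference of 1 were 6 for -Fe vs +Fe, 4 for Fe resupply vs +Fe and 1 for -Fe vs Fe resupply. With a difference of 0.5 they were 26, 19 and 12, and with a minimum of 100 CPM they were 3, 2 and 0, over 22 members. The count for -Fe vs Fe resupply was also 0 with a pseudocount of 5 CPM, 0 with the averages read as means of log2 levels, 2 after centring on the nuclear median and 5 with no minimum level. Shares over all transcripts are given above for differences of 1 and 0.5 at 10 CPM. They were not computed for the minimum of 100 CPM or for these other settings. With no minimum level the median was -0.34 for -Fe vs +Fe and -0.23 for Fe resupply vs +Fe, over 122 members, many of them near 0 CPM. The chloroplast share in +Fe was 1.45% without removal of the floor. Without ATCG00480.1, an alternative chosen after seeing the data like the minimum on the mean of the conditions, the shares were 0.988% in +Fe, 0.739% in -Fe and 0.814% in Fe resupply. For the 7 single transcripts followed, 114 values moved by less than 0.1 on the log2 scale and 12 by more, over the settings that enter a single difference, with no reversal of a difference of 0.5 or more. The largest such shifts of ndhJ and ndhK came with the averages read as means of log2 levels, where Fe resupply vs +Fe was -1.12 and -0.998 and -Fe vs Fe resupply was -0.46 and -0.50. Centring shifts were at most 0.07. No paired analysis was possible because the tables hold no value per sample, and no replicate could be left out.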
